A study of Mus musculus with 31 samples.

Results

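The cell cycle and DNA replication genes described here are 40 genes, named in a list and matched by symbol to the Ensembl gene IDs of the 31 deposited count files, out of 29120 gene IDs in all. All 40 had an ID, and a gene with no line in a file was taken as 0 there. They were kept as 23 mitotic genes, which act in building and checking the spindle and in parting the chromosomes, and 17 replication genes, which act in licensing, copying and supplying DNA or in starting S phase. The label held for its members by their known roles.

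RNA was sequenced from dendritic cells and whole spleens of C57BL/6 mice, wild-type or Gpr34-/-. Gpr34 is a receptor that couples to G proteins and is known to respond to lysophosphatidylserine, and the series title names the regulation of Gpr34 expression as the question. Marrow cells from males, 8 to 16 weeks old, were grown for 10 days with GM-CSF-containing medium from a cell line, a culture whose precursors divide before they become dendritic cells, and all 4 dendritic cell groups share this culture. Cells were replated without serum on day 10, and LPS, a bacterial cell wall component that activates them, was given on day 11 for 8 h to the LPS groups. The groups were naive wild-type (replicates 1, 2 and 4), LPS wild-type (1, 2 and 3), naive labelled knockout (2, 3 and 4) and LPS labelled knockout cultures (2, 3 and 4), with 10 wild-type and 9 knockout spleens of mice aged 12 weeks, labelled as naive. The sources used here state neither when the naive cultures were taken nor how Gpr34 was disrupted.

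A dividing cell passes through G1, S, G2 and mitosis. E2F factors and cyclin E start S phase, the licensing factors Cdc6 and Cdt1 load the MCM helicase onto DNA, and the clamp Pcna and the enzymes that make deoxynucleotides serve the copying of DNA. Later, cyclin B with Cdk1, the Polo and Aurora kinases and the transcription factor Foxm1 drive mitosis. As bone marrow precursors become dendritic cells most of them leave the cycle, while the spleen of a mouse holds dividing erythroblasts and lymphocytes.

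Total counts ranged from 38998746 to 74164853 in the 12 dendritic cell libraries and from 56834377 to 133277070 in the 19 spleens. Wild-type dendritic cell libraries held 65 to 324 Gpr34 counts. Those labelled knockout held 0 to 120, with 3 of 6 over 100, and are called labelled knockout throughout. The ranges for spleens were 308 to 986 (wild-type) and 42 to 156 (knockout). The 9 dendritic cell markers (among them Itgax, Flt3, Zbtb46 and Cd74) were all detected in every dendritic cell group. They summed to 11771 to 21623 CPM (reads of a gene relative to the library, scaled to one common size with TMM-adjusted library sizes). In the same cultures 8 B cell markers summed to 2.17 to 8.8 CPM and 8 macrophage markers to 761 to 2068 CPM. Cd74 alone measured 7965 to 12693 CPM there. In whole spleens the dendritic cell list summed to 10761 to 24311 CPM, so its sum does not show how pure the cultures were. The labels do not tie replicates to animals, so p-values measure only the spread between these libraries, which may be technical. A pair of libraries stood apart in the cell cycle genes, naive labelled knockout 3 and knockout spleen 4, and results that rest on them are given with and without them.

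Because most members moved together, their promoters are shown first (250 bases before to 50 bases after the annotated start, RefSeq, GRCm38.p6, written along the gene's own strand). Capitals mark the letters searched on both strands: the CCAAT box (CCAAT), the cell cycle homology region or CHR (TTTGAA or TTCGAA), and E2F letters (TTTCCCGC or TTTGGCGC or TTTCGCGC or TTTGCCGC). Matches that overlap run together, and ATTGG is CCAAT read on the other strand. Nusap1 and Bub1b, and Tyms and E2f2, are the mitotic and replication genes of this table with the smallest p for LPS in wild-type cells, and Plk1 and Mcm5 were chosen after the matches were counted, as clear examples of either kind.
Plk1, chr7:122159185-122159484, plus strand: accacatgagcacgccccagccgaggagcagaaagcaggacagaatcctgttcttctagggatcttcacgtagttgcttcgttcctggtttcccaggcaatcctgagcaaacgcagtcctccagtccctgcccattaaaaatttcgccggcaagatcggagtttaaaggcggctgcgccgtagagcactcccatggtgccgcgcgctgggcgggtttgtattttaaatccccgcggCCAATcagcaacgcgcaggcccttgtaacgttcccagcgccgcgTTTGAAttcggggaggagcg
Bub1b, chr2:118597961-118598260, plus strand: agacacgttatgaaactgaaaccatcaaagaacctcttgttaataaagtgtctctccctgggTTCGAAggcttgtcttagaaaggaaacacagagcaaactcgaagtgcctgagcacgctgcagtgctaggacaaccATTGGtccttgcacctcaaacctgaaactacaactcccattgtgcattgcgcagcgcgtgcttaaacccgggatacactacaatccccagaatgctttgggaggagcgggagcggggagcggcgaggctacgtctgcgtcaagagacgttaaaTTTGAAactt
Nusap1, chr2:119618048-119618347, plus strand: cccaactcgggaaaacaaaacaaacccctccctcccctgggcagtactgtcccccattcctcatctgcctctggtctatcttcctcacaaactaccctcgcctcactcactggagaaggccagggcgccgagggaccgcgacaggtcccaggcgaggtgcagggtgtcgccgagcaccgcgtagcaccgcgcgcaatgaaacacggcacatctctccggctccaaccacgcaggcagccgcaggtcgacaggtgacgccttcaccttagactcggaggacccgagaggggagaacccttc
Mcm5, chr8:75109259-75109558, plus strand: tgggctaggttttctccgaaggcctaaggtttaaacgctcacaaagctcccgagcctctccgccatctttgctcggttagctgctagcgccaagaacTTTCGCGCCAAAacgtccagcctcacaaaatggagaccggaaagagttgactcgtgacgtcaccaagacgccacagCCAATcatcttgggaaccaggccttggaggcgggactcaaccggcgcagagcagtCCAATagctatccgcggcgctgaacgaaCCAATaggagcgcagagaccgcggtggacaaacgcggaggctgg
E2f2, first start, chr4:136172024-136172323, plus strand: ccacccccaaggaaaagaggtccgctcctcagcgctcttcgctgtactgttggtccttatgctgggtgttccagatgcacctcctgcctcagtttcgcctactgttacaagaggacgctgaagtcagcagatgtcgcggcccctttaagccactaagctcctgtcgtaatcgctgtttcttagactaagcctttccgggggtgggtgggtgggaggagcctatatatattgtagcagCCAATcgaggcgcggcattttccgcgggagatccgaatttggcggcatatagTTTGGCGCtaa
E2f2, second start, chr4:136180532-136180831, plus strand: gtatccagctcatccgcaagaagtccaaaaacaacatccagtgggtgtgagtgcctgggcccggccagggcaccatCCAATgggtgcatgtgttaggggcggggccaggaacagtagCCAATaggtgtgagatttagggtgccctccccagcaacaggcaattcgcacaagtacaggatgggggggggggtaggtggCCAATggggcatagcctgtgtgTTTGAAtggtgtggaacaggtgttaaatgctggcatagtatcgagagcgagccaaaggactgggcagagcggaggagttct
Tyms, chr5:30073576-30073875, minus strand: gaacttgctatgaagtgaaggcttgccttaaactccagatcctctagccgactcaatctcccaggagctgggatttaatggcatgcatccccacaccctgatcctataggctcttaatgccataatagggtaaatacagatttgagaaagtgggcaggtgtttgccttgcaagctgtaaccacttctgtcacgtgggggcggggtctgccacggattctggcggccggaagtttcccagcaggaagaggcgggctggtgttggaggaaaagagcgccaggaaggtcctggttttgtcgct

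The Plk1 window held a CCAAT box and, 31 bases past the start, a CHR. The Mcm5 window held E2F letters on both strands and 3 CCAAT boxes. E2f2 had E2F letters at its first start and a CHR at its second, and none of the letters stood in the windows of Nusap1 or Tyms, which says only that these letters are not there. The windows of Mcm5 and of the first E2f2 start ended before the gene starts in the GENCODE M21 annotation (75109569 and 136172394). Their last 30 bases were in no GENCODE transcript of the gene, so these starts are uncertain. The second E2f2 window, which holds the only CHR of that gene, lies inside the annotated gene (136172394 to 136196057). Of the 40 members 33 were in the table, 18 mitotic and 15 replication genes. Both a CCAAT box and a CHR stood in the promoter of 14 of the 18 mitotic genes (77.8%), against 7.52% of all 32851 promoters of that length, while E2F letters stood in 1 of 18 (5.56%), that of Cdk1. Among the 15 replication genes, 7 (46.7%) held E2F letters, against 2.26% of all promoters, and 3 held a CHR (20%, against 19.2%), namely Mcm2, Mcm7 and E2f2. A member with several starts was counted by any of them, while the shares of all promoters count each of the 32851 promoters (of 27025 genes) singly. The shares are therefore not in the same unit. A match is a run of letters, not a shown binding site.

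After 8 h of LPS the mitotic genes fell in wild-type dendritic cells: 21 of 23 had an adjusted p under 0.05 and were lower, none was higher, and the median log2 fold change was -2.64, from -3.23 for Cdc20 to -0.93 for Tpx2. Over all 16965 genes tested the median was -0.03, and 15.8% of genes passed as lower and 18.1% as higher. Tpx2, a spindle assembly factor, and Mki67, the proliferation marker Ki-67, did not pass, with log2 fold changes of -0.93 (SE 0.36) and -1.03 (SE 0.47) and adjusted p of 0.0713 and 0.118. Of the 17 replication genes 13 fell and 1 rose, with a median of -1.16; the difference between the classes was not tested. All tests are edgeR's quasi-likelihood test over all genes with Benjamini-Hochberg adjustment. In bulk RNA, fewer dividing cells and less of these RNAs per cell cannot be told apart. As the time at which naive cultures were taken is not stated, LPS and time since replating without serum cannot be told apart either. The 3 LPS libraries lay wholly below the 3 naive ones for 39 of the 40 members, against 25.3% of all genes.

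**Figure D1:**
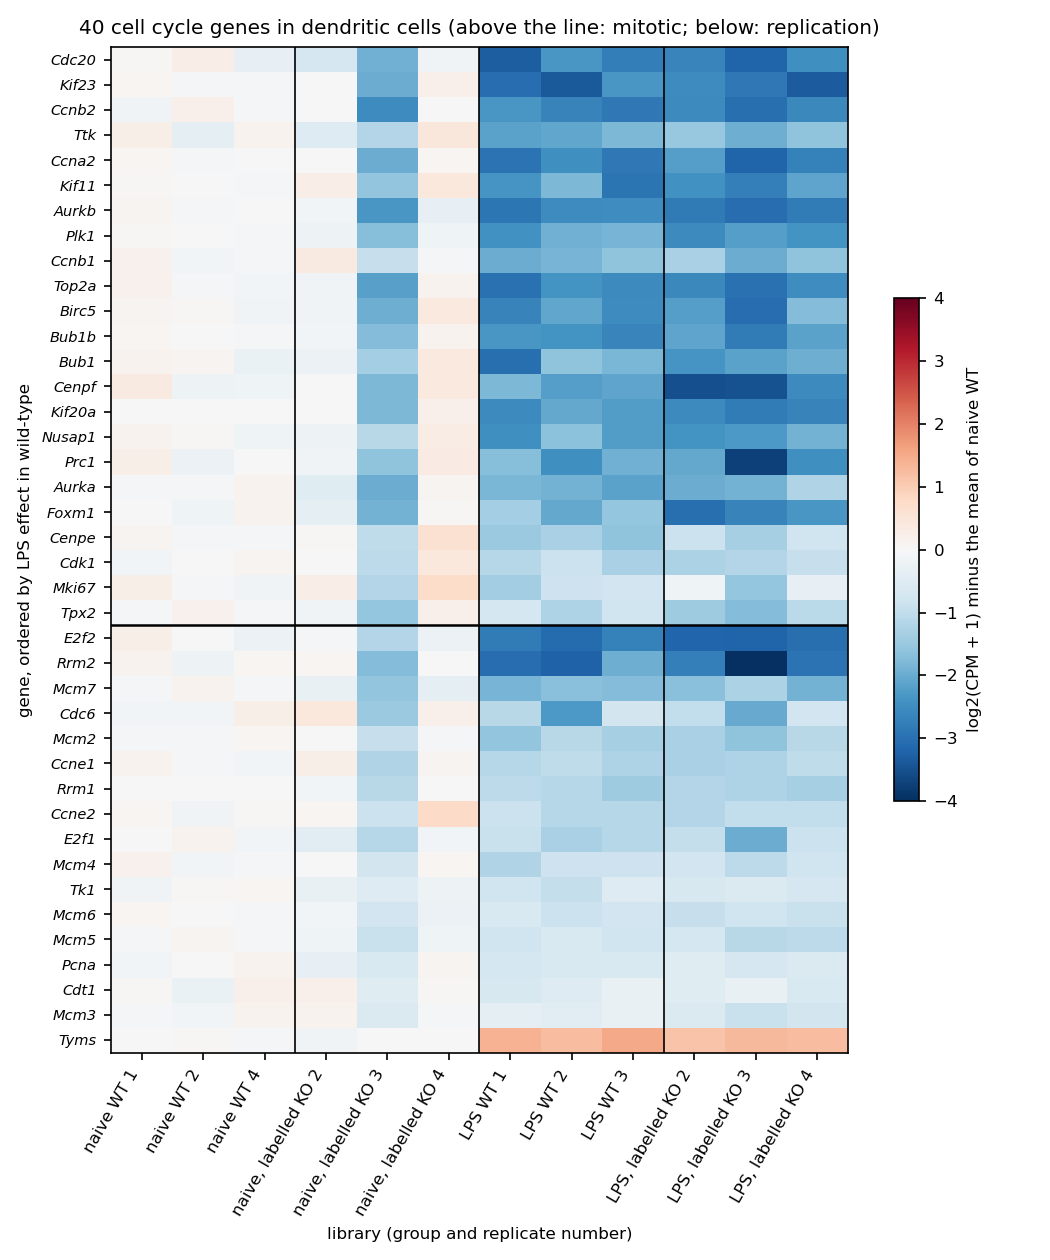
Heat map of the 40 members (rows, mitotic above the line and replication below) in the 12 dendritic cell libraries (columns); colour is log2(CPM + 1) minus the mean of the 3 naive wild-type libraries, blue being lower. The LPS libraries are blue, some of them faintly, in all rows but Tyms, which is red, and naive labelled knockout 3 is blue among the naive ones.

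Among the cyclins and Cdk1, the engine of mitotic entry, all 4 members fell. Ccnb1, cyclin B1, measured 6.05, 4.88 and 5.11 CPM in naive wild-type cultures 1, 2 and 4 and 0.605, 0.761 and 1.09 CPM in LPS cultures 1, 2 and 3. Ccnb2, cyclin B2, measured 13.3, 16.9 and 14.1 CPM naive and 2.15, 1.48 and 1.15 CPM after LPS. Every LPS value lay below every naive one, with log2 fold changes of -2.71 (SE = 0.45 and adjusted p = 0.000921) for Ccnb1 and -3.21 (SE = 0.64 and adjusted p = 0.00291) for Ccnb2. Cyclin A2 (Ccna2) fell by a log2 fold change of -3.04. Cdk1, the kinase that these cyclins activate, had a log2 fold change of -1.11 (SE 0.29) and stood at 27.2, 33.7 and 24.5 CPM.

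The 4 mitotic kinases fell, with log2 fold changes from -3.08 to -2.12. Ttk (Mps1), which starts the spindle checkpoint, measured 7.17, 4.26 and 6.63 CPM naive and 0.55, 0.627 and 0.968 CPM after LPS, a log2 fold change of -3.08 (SE = 0.50 and adjusted p = 0.000866). Plk1, the Polo-like kinase, measured 7.87, 7.54 and 7.22 CPM naive and 0.578, 1.23 and 1.33 CPM after LPS, a log2 fold change of -2.85 (SE = 0.51 and adjusted p = 0.00141). Both kinases were left with 20 to 55 reads per wild-type LPS library. Aurka and Aurkb, the Aurora kinases of the spindle poles and of the chromosome passenger complex, fell by log2 fold changes of -2.12 and -2.96.

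The spindle checkpoint holds back chromosome separation until all chromosomes are attached, and Cdc20, its target, then switches on the anaphase-promoting complex. All 3 genes of this group fell. Bub1b, the checkpoint protein BubR1, measured 37.7, 36 and 34 CPM naive and 6.27, 6.05 and 4.9 CPM after LPS. Cdc20 measured 20.9, 24.1 and 15.8 CPM naive and 1.16, 3.18 and 2.09 CPM after LPS. Their log2 fold changes were -2.64 (SE = 0.42 and adjusted p = 0.000741) and -3.23 (SE = 0.52 and adjusted p = 0.000785), the latter the lowest of the mitotic genes. Bub1 had -2.53 (SE = 0.60 and adjusted p = 0.0076), with LPS values spread from 0.44 to 2.82 CPM.

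All 5 kinetochore and kinesin genes fell, from -3.21 for Kif23, a motor of the central spindle, to -1.77 for Cenpe, the motor that carries chromosomes to the spindle equator. Kif20a, a kinesin of cytokinesis, measured 55.9, 56.1 and 57.8 CPM naive and 8.83, 13 and 11.3 CPM after LPS, a log2 fold change of -2.36 (SE = 0.40 and adjusted p = 0.00115). Of the spindle, midzone and chromosome passenger genes, 3 of 4 fell. Nusap1, a microtubule-binding spindle protein, measured 27.6, 25.8 and 22.4 CPM naive and 3.82, 7.35 and 4.54 CPM after LPS, a log2 fold change of -2.27 (SE = 0.36 and adjusted p = 0.000718). Birc5, survivin, measured 29.3, 28.5 and 24.5 CPM naive and 3.41, 5.64 and 3.9 CPM after LPS, with -2.66 (SE = 0.56 and adjusted p = 0.004). Each of these genes had LPS libraries wholly below the naive ones.

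Top2a, the topoisomerase that untangles DNA, had the highest CPM of the mitotic genes in naive wild-type cells. It measured 121, 100 and 97.7 CPM naive and 12.5, 19.6 and 17.2 CPM after LPS, a log2 fold change of -2.69 (SE = 0.47 and adjusted p = 0.00124). Mki67 measured 32.4, 25.8 and 24.8 CPM naive and 9.79, 15.1 and 15.7 CPM after LPS, so its groups did not overlap although it missed the threshold. Foxm1, which activates many genes of this class, measured 12.8, 11.2 and 14.1 CPM naive and 4.26, 2.28 and 3.66 CPM after LPS, a log2 fold change of -1.90 (SE = 0.50 and adjusted p = 0.0131). Its call was lost without LPS wild-type 2 (adjusted p = 0.0528).

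**Figure D2:**
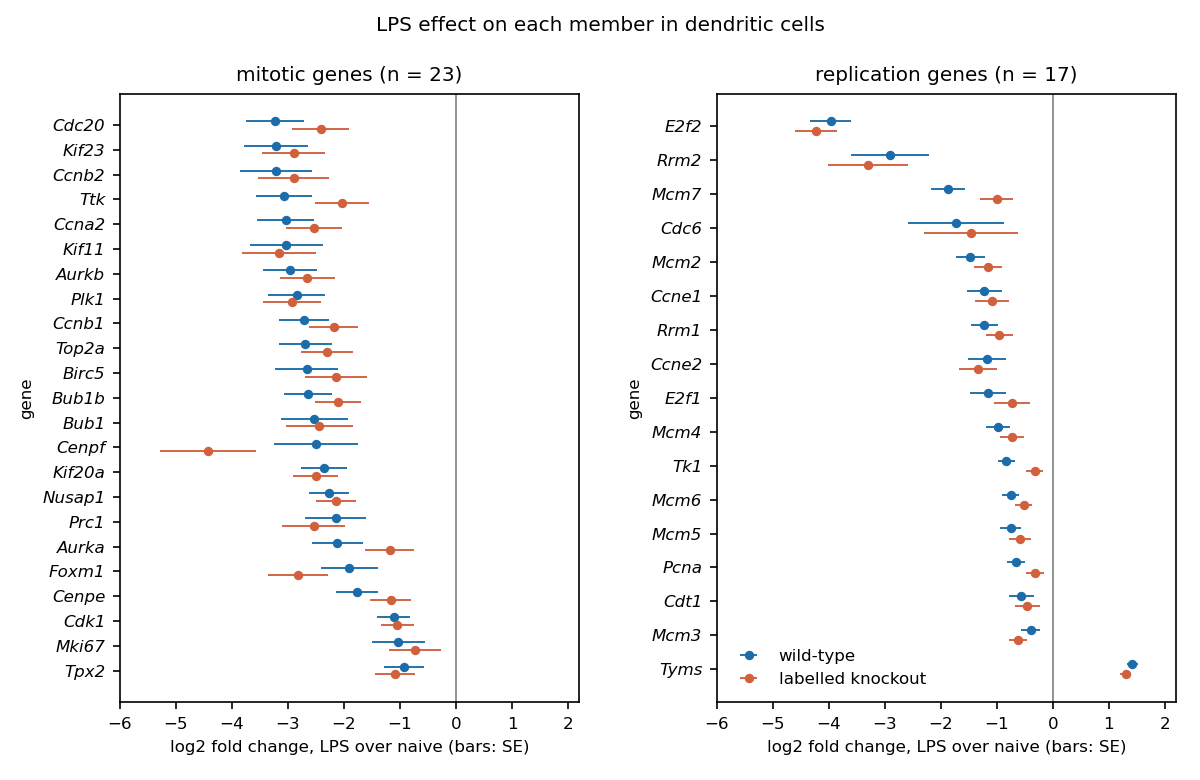
Log2 fold change of LPS over naive cells for each member, with SE bars, in wild-type (blue) and labelled knockout cells (orange); left panel mitotic genes, right panel replication genes. Mitotic genes lie farther left (wild-type median -2.64) than replication genes (-1.16), with E2f2 far to the left and Tyms alone to the right of 0.

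The MCM helicase unwinds DNA ahead of the fork. Of its 6 subunits 5 fell in wild-type cells, and their log2 fold changes spanned -1.87 to -0.40. Mcm7 measured 29.8, 34.7 and 30.1 CPM naive and 7.95, 9.21 and 8.71 CPM after LPS, a log2 fold change of -1.87 (SE = 0.31 and adjusted p = 0.000894). Mcm3, the subunit with the smallest difference, measured 33.7, 32.6 and 39 CPM naive and 26.4, 25.4 and 28.2 CPM after LPS, -0.40 (SE = 0.17 and adjusted p = 0.094). Although these subunits work as 1 complex, Mcm7 and Mcm2 (-1.47, SE 0.26) were farther below their naive level than Mcm3, Mcm5 (-0.75, SE 0.19) and Mcm6 (-0.75, SE 0.15), a contrast between genes that was not tested. Of the 5 subunits in the promoter table, Mcm7 and Mcm2 held a CHR. Mcm4, which had a log2 fold change of -0.98 (SE 0.21), is not in that table.

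The licensing factors did not pass. Cdt1, which loads the helicase, measured 8.16, 6.4 and 9.21 CPM naive and 4.62, 5.24 and 6.23 CPM after LPS, with -0.56 (SE = 0.23 and adjusted p = 0.0788). Cdc6, its partner, measured 4.54, 4.5 and 5.95 CPM naive and 1.76, 0.202 and 2.6 CPM after LPS, with -1.73 (SE = 0.85 and adjusted p = 0.146), and LPS wild-type 2 had 9 reads of it. The groups did not overlap for either gene. Pcna, the sliding clamp of the DNA polymerases, fell from 37, 39.1 and 43.6 CPM to 24.2, 25.9 and 26 CPM, a log2 fold change of -0.65 (SE = 0.16 and adjusted p = 0.00977).

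The 4 genes of nucleotide supply went in both directions. Rrm2, the S phase subunit of ribonucleotide reductase, measured 34.7, 27.2 and 33 CPM naive and 2.97, 2.44 and 7.35 CPM after LPS, a log2 fold change of -2.90 (SE = 0.69 and adjusted p = 0.00778). Its partner Rrm1 had a log2 fold change of -1.22 and thymidine kinase Tk1 one of -0.83, and both passed as lower. Tyms, thymidylate synthase, which makes the thymidine nucleotide, rose. It measured 31.2, 32.6 and 30.2 CPM in naive wild-type cultures and 84.1, 75.6 and 91.8 CPM after LPS, a log2 fold change of 1.42 (SE = 0.10 and adjusted p = 2.42e-06). In cultures labelled knockout it measured 28, 31.9 and 30.8 CPM naive and 70.5, 78.4 and 74.2 CPM after LPS, 1.30 (SE = 0.10 and adjusted p = 5.43e-06). All 6 LPS libraries lay above all 6 naive ones, and Tyms was the member with a positive log2 fold change in each of the 21 settings tried in wild-type and the 22 tried in labelled knockout cells.

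E2F factors and cyclin E switch on the S phase genes, and all 4 of this group fell in wild-type cells. E2f2, an activating E2F, had the lowest log2 fold change of the 40 members in wild-type cells. It measured 14, 11.5 and 9.81 CPM naive and 0.825, 0.515 and 0.938 CPM after LPS, and in labelled knockout cultures 11, 4.63 and 9.79 CPM naive and 0.406, 0.379 and 0.554 CPM after LPS. The log2 fold changes were -3.96 (SE = 0.37 and adjusted p = 2.07e-05) and -4.24 (SE = 0.38 and adjusted p = 2.2e-05), and 16 to 31 reads were left per LPS library. E2f1 was nearer its naive level, falling from 28.3, 31.6 and 26.8 CPM to 15.2, 11 and 12.6 CPM, -1.16 (SE = 0.32 and adjusted p = 0.0164), and this call was lost without LPS wild-type 2 (adjusted p = 0.061). Ccne1 and Ccne2, the E cyclins, had -1.22 and -1.18 and passed as lower.

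Set beside the promoters, the 3 replication genes with a CHR had log2 fold changes of -3.96 to -1.47 in wild-type cells (median -1.87). The lowest of these is E2f2, whose CHR stands only in the window inside the gene. Mcm7 (-1.87) and Mcm2 (-1.47) are the others. The 12 replication genes without a CHR had -2.90 to 1.42 (median -0.79). Rrm2 is in the second group, so the ranges overlapped. The 14 mitotic genes with a CHR had a median of -2.67, and the 4 without had -2.46, so within that class the medians lay close. Replication genes with and without E2F letters had medians of -0.75 (n = 7) and -1.19 (n = 8). These are descriptions of few genes, with no test.

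In cells labelled knockout 21 of 23 mitotic genes and 11 of 17 replication genes were lower after LPS, with Tyms the 1 member higher. Of all genes 13.4% were lower and 15.3% higher. The median log2 fold change was -2.42 for mitotic and -0.73 for replication genes. Cenpf, a kinetochore protein, had the lowest value, -4.43 (SE = 0.85 and adjusted p = 0.00295), with 11.5, 2.58 and 15.6 CPM naive and 0.102, 0.12 and 1.13 CPM after LPS. Foxm1 measured 9.46, 2.66 and 13.1 CPM naive and 0.686, 1.14 and 1.7 CPM after LPS, -2.82 (SE = 0.53 and adjusted p = 0.00252). Genes called lower in wild-type but not here were Aurka, Pcna, Tk1 and E2f1, and those called here but not in wild-type were Tpx2 and Mcm3. The replication count rested on single libraries: it was 3 without naive labelled knockout 4, 5 without naive labelled knockout 2, 7 without LPS labelled knockout 3, 6 without LPS labelled knockout 4 and 14 without naive labelled knockout 3. The interaction test, which asks whether the LPS effect differs with the label, called none of the 40 members and 0% of all genes. At an unadjusted p under 0.05 it had 1 member (Tk1, 0.51, SE 0.21), against 4.00% of all genes.

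The 3 LPS libraries labelled knockout lay wholly below their naive counterparts for 26 members, against 20.4% of all genes, and the overlaps came from 1 naive library. Without naive labelled knockout 3, the count was 39 of 40. That library was below the other 5 naive libraries in 39 of the 40 members, all but Tyms, while 25.4% of all genes were lowest there. Its log2(CPM + 1) was lower than the mean of the other naive libraries (median difference -1.74 in mitotic and -0.90 in replication genes). Top2a measured 96.6, 22.9 and 116 CPM in naive labelled knockout 2, 3 and 4, Bub1b 33.1, 10 and 40 CPM and Mcm7 25.3, 9.92 and 24 CPM. For 20 members the library lay above every LPS library, so it stood between the naive and the LPS cultures, and for 19 it reached into the range of LPS or lay under it.

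Cytokine genes that LPS induces were not at LPS levels in that library, while several dendritic cell markers lay towards them. Il12b, a subunit of IL-12, measured 137 CPM there, 69 and 45.7 CPM in the other naive labelled knockout libraries and 5160 to 5850 CPM in the LPS libraries of that label. Il6 measured 12.2 CPM against 4.68 and 5.16, and 421 to 551 CPM after LPS. Its Tyms level of 31.9 CPM was that of naive cells. The same library held 120 Gpr34 counts, and its 8 macrophage markers summed to 761 CPM, against 1293 to 1571 CPM in the other naive libraries. LPS labelled knockout 3 had similar traits, with 117 Gpr34 counts and a macrophage sum of 912 CPM, against 1267 to 2068 CPM in the other LPS libraries. It was the lowest of the 6 LPS libraries in 17 of the 40 members, where the others were lowest in 1 to 7. The share of all genes lowest in that library was not computed, so whether this count is unusual is not known. In naive labelled knockout 3 the 9 dendritic cell markers summed to 17138 CPM, against 11771 to 14383 CPM in the other naive and 18444 to 21623 CPM in the LPS libraries. Of these markers 8 were above the other 5 naive libraries and 2 were within the range of LPS. Zbtb46, a dendritic cell transcription factor, measured 58.8 CPM, against 23.7 to 28.5 in the other naive and 46.3 to 69.5 in the LPS libraries. Cd86, a costimulatory molecule, measured 655 CPM, against 295 to 355 and 855 to 1063. What part these differences had in its low cell cycle genes was not tested. Without it the LPS effect in labelled knockout cells was farther from 0, with median log2 fold changes of -2.82 for mitotic and -0.99 for replication genes.

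Between labelled knockout and wild-type cultures no member passed in either state. In naive cells edgeR's quasi-likelihood test called 0 members and 0% of genes. An unadjusted p under 0.05 was reached by 3 members (Mcm6, Mcm7 and Tk1, all negative). Over all genes 6.71% reached it in either direction, 735 as higher and 404 as lower. Log2 fold changes were negative for 37 of 40 members, with a median of -0.32. Without naive labelled knockout 3 they were negative for 16 and the median was 0.02, so the shift rested on that library. In LPS-treated cells 0 members and 0% of genes were called. Over all genes 11.3% had an unadjusted p under 0.05 in either direction, 1121 as higher and 793 as lower. This p was also reached by 3 members. Those were Foxm1 (-1.52, SE 0.52), Cenpf (-2.18, SE 0.83) and Mcm3 (-0.37, SE 0.17). Their labelled knockout libraries lay wholly below the wild-type ones, but as these genes were picked by p this adds no support. Cenpf had only 4, 6 and 53 reads in LPS labelled knockout 2, 3 and 4. DESeq2 and limma voom also called no member in naive cells, LPS-treated cells or the interaction. In a fit without the 3 labelled knockout libraries over 100 Gpr34 counts, the median over the members was 0.03 in naive cells. In LPS-treated cells it was -0.01, with only LPS labelled knockout 2 left in that group.

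Other genes of the cycle, from lists outside the 40 members, mostly fell as well in mitosis and replication. Of 32 other mitotic genes 28 fell and 1 rose with LPS in wild-type cells, and 25 fell and 1 rose in labelled knockout cells. Kif15, a spindle kinesin, had -2.68 (SE = 0.34 and adjusted p = 0.000196) in wild-type cells and Nuf2, a kinetochore subunit, -3.31 (SE = 0.51 and adjusted p = 0.000609). The gene that rose was Pttg1, securin, the inhibitor of the enzyme that cuts cohesin, with 1.72 (SE = 0.11 and adjusted p = 2e-06) in wild-type and 1.89 (SE = 0.11 and adjusted p = 1.29e-06) in labelled knockout cells. Of 34 other replication genes 24 fell and 1 rose in wild-type cells and 17 fell and 1 rose in labelled knockout cells. Clspn, claspin of the replication checkpoint, had -4.50 (SE = 0.89 and adjusted p = 0.00275) in wild-type cells, and Timeless, of the fork protection complex, rose by 1.02 (SE = 0.23 and adjusted p = 0.00564). Timeless was named, as the 1 gene of its list that rose, after its values were seen.

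Of 22 genes of G1 cyclins, kinases, E2F and pocket proteins, 5 rose and 7 fell in wild-type cells, where 18.1% of all genes rose and 15.8% fell, so the share that rose was near that of all genes. Ccnd2, cyclin D2, which pairs with Cdk4 and Cdk6 in G1, rose by 2.45 (SE = 0.30 and adjusted p = 0.000134) and E2f3 by 1.06 (SE = 0.15 and adjusted p = 0.000298), while Myc had -2.67 (SE = 0.38 and adjusted p = 0.000366) and Rbl2, the pocket protein p130, -0.89 (SE = 0.13 and adjusted p = 0.000423). E2f3 thus went opposite to E2f1 and E2f2 in wild-type cells. Of 13 inhibitors and p53 arrest genes 6 rose and 3 fell, a small list to set against the same shares. Cdkn1a, the CDK inhibitor p21, rose by 0.96 (SE = 0.14 and adjusted p = 0.000339) and Gadd45b by 1.74 (SE = 0.19 and adjusted p = 5.85e-05), and Cdkn2c, the CDK4 and CDK6 inhibitor p18, had -2.99 (SE = 0.42 and adjusted p = 0.000346).

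In spleens no member passed between knockout and wild-type: edgeR's quasi-likelihood test called 0 of 40 members and 0.177% of 20371 genes. All 40 log2 fold changes were positive, from 0.06 for Ttk to 0.69 for Ccne2, with medians of 0.19 for mitotic and 0.34 for replication genes, against 0.01 over all genes. With the replicate number as a block 34 of 40 were positive, and the median over the 40 members was 0.18 in place of 0.30; limma voom gave 36 of 40 and 0.19. An unadjusted p under 0.05 was reached by 11 members, 3 mitotic and 8 replication, all positive. Over all genes 17.4% reached it in either direction, 1750 as higher and 1791 as lower. DESeq2 called Cdt1 (log2 fold change 0.61, adjusted p = 0.0112) and Plk1 (0.60, adjusted p = 0.0411), and edgeR called Cdt1 when knockout spleen 6 was left out (0.62, adjusted p = 0.04). Limma voom called none.

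Cdt1, of licensing, ranged from 8.69 to 21.8 CPM (median 17.3) in the 10 wild-type spleens and from 17.4 to 32.5 CPM (median 23.4) in the 9 knockout spleens. Its log2 fold change was 0.61 (SE = 0.16 and adjusted p = 0.0809), with the smallest p of the 40 members. The lowest knockout value lay above the wild-type median, but the groups overlapped. E2f1 ranged from 16.5 to 32.2 CPM (median 23.2) in the 10 wild-type spleens and from 21.4 to 58.6 CPM (median 29) in the 9 knockout spleens, with 0.44 (SE = 0.16 and adjusted p = 0.187). Pcna ranged from 78.2 to 110 CPM (median 88.6) in the 10 wild-type spleens and from 86.5 to 179 CPM (median 98.5) in the 9 knockout spleens, with 0.31 (SE = 0.12 and adjusted p = 0.196). Both medians were higher in knockout, within overlapping ranges. Mcm3 ranged from 37.3 to 71.8 CPM (median 52.4) in the 10 wild-type spleens and from 41.6 to 102 CPM (median 66.8) in the 9 knockout spleens, with 0.31 (SE = 0.14 and adjusted p = 0.244). Tyms was higher after LPS in dendritic cells. It ranged from 23.1 to 39.7 CPM (median 30.2) in the 10 wild-type spleens and from 23.4 to 87.9 CPM (median 35.2) in the 9 knockout spleens, with 0.39 (SE = 0.19 and adjusted p = 0.303). Each of these 5 replication genes kept a positive log2 fold change in every setting tried. As they had the smallest p of their roles in these same spleens, this adds no support.

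Among mitotic genes Plk1 ranged from 7.06 to 14 CPM (median 10.9) in the 10 wild-type spleens and from 8.05 to 28.2 CPM (median 15.6) in the 9 knockout spleens, with 0.60 (SE = 0.19 and adjusted p = 0.129). Cdc20 ranged from 18.7 to 41.6 CPM (median 27.6) in the 10 wild-type spleens and from 18.8 to 53.2 CPM (median 33.6) in the 9 knockout spleens, with 0.30 (SE = 0.16 and adjusted p = 0.336). Both were among the higher log2 fold changes of their class, and their groups overlapped. Ccnb2 had 0.31 (SE = 0.23 and adjusted p = 0.488) and Birc5 0.38 (SE = 0.27 and adjusted p = 0.472). Kif20a, Foxm1 and Top2a had 0.15 (SE 0.14), 0.18 (SE 0.21) and 0.13 (SE 0.21). Mki67 ranged from 71.7 to 253 CPM (median 123) in the 10 wild-type spleens and from 48.6 to 399 CPM (median 123) in the 9 knockout spleens, with 0.18 (SE = 0.33 and adjusted p = 0.8), and its knockout range enclosed the wild-type range.

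Knockout spleen 4 was the highest of all 19 spleens in all 40 members, while 10.2% of all genes were highest there. Its log2(CPM + 1) exceeded the mean of the other spleens by a median of 1.24 in mitotic and 1.11 in replication genes. Mki67 measured 399 CPM in it and 48.6 to 262 CPM in the other knockout spleens. Without that library 29 of 40 log2 fold changes were positive. The mitotic median became 0.0008 with 12 of 23 positive, and the replication median 0.19 with 17 of 17 positive. Cdt1 had 0.55 (SE 0.16, adjusted p = 0.129) and Plk1 0.44 (SE 0.16, adjusted p = 0.216) without it. An unadjusted p under 0.05 was then reached by 4 of the 40 members. Of all 20514 genes in that fit, 1573 reached it as higher and 1489 as lower, so the members did not exceed the share of all genes.

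**Figure D3:**
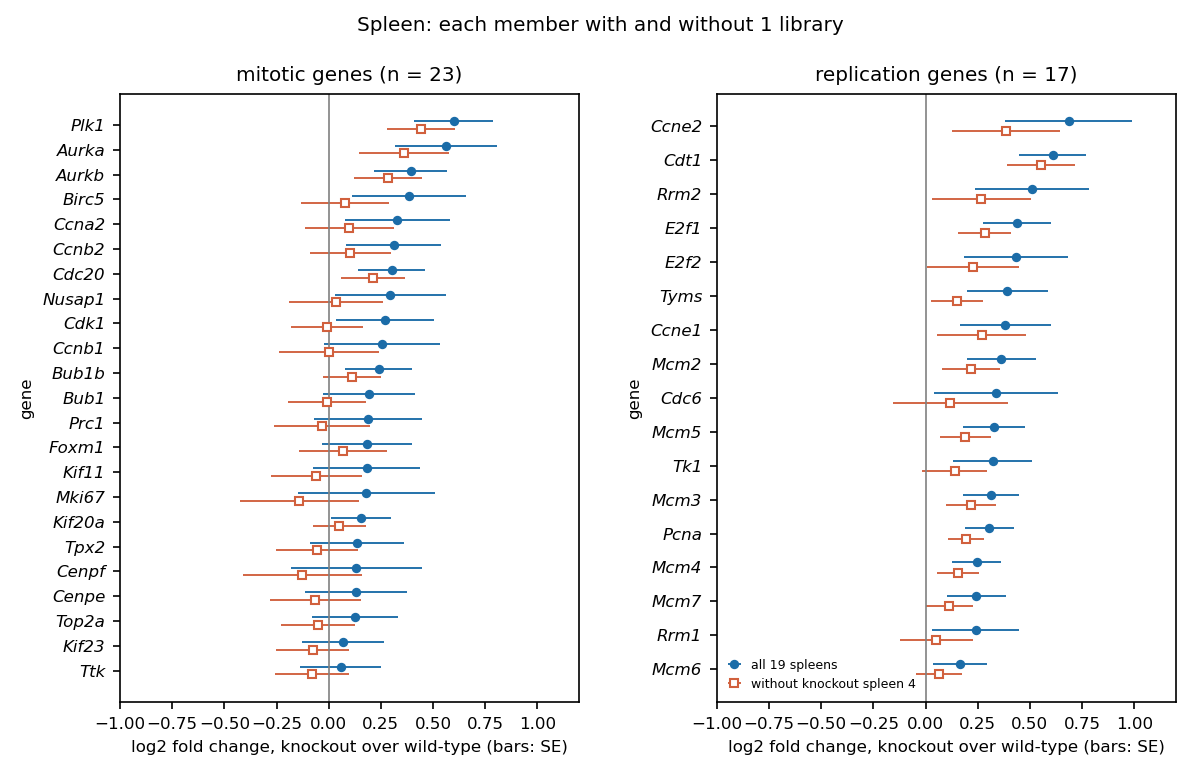
Log2 fold change of knockout over wild-type spleens for each member with SE bars, from all 19 spleens (filled circles) and without knockout spleen 4 (open squares). All filled circles lie right of 0, and the open squares of the mitotic genes scatter about 0 while those of the replication genes stay above it.

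The same library had the highest sum of the 13 erythroblast markers, among them Klf1, Alas2 and alpha and beta globin, at 48913 CPM. The other 18 spleens had 5155 to 26373 CPM. It also had the highest sum of 7 megakaryocyte markers, 518 CPM against 101 to 242 CPM. All 13 erythroblast markers were detected in every spleen group, with positive log2 fold changes for 13 of 13 (median 0.50) and none called. The 5 spleens with the highest mean of mitotic genes (knockout 4, 6 and 8, wild-type 4 and 7) were also the 5 with the highest erythroblast sums, 17844 to 48913 CPM. Lower down the ranks differed: counted from the highest of 19, wild-type spleen 1 was at 8 by mitotic genes and 18 by erythroblast markers, and knockout spleen 7 at 19 and 11. Other marker lists differed in sign between the groups as well, with 8 of 8 exocrine pancreas markers positive (median 1.76), 0 of 6 plasma cell markers positive (median -0.26, 3 with an unadjusted p under 0.05) and none called. The part of these cell types in the result was not tested.

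Among the other genes of the cycle none was called in spleens, where 32 of 32 other mitotic and 31 of 34 other replication genes had positive log2 fold changes (medians 0.26 and 0.27). The smallest p belonged to Pold1, the catalytic subunit of DNA polymerase delta, with 0.38 (SE = 0.11 and adjusted p = 0.0988), and to Dut, which clears dUTP, with 0.49 (SE = 0.14 and adjusted p = 0.104). Cdc7, a kinase that fires replication origins, was negative at -0.32 (SE = 0.10 and adjusted p = 0.123). Knockout spleen 4 enters these values too.

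Across the 6 groups, on CPM scaled over all 31 libraries, the class means were lowest in the LPS groups. The mean log2(CPM + 1) of the mitotic genes was 4.66 ± 0.08 (SD, n = 3) in naive wild-type cells, 2.53 ± 0.11 (n = 3) after LPS and 4.94 ± 0.35 (n = 10) in wild-type spleens. That of the replication genes was 4.86 ± 0.03, 3.79 ± 0.11 and 5.28 ± 0.27. The mitotic mean minus the replication mean was -0.20 ± 0.07 in naive cells, -1.26 ± 0.18 after LPS and -0.35 ± 0.12 in spleens, and the LPS libraries lay below all naive wild-type ones. In labelled knockout cultures the difference was -0.39 ± 0.50 naive and -1.30 ± 0.14 after LPS, and naive labelled knockout 3 stood at -0.95. In knockout spleens it was -0.49 ± 0.17 (n = 9).

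**Figure D4:**
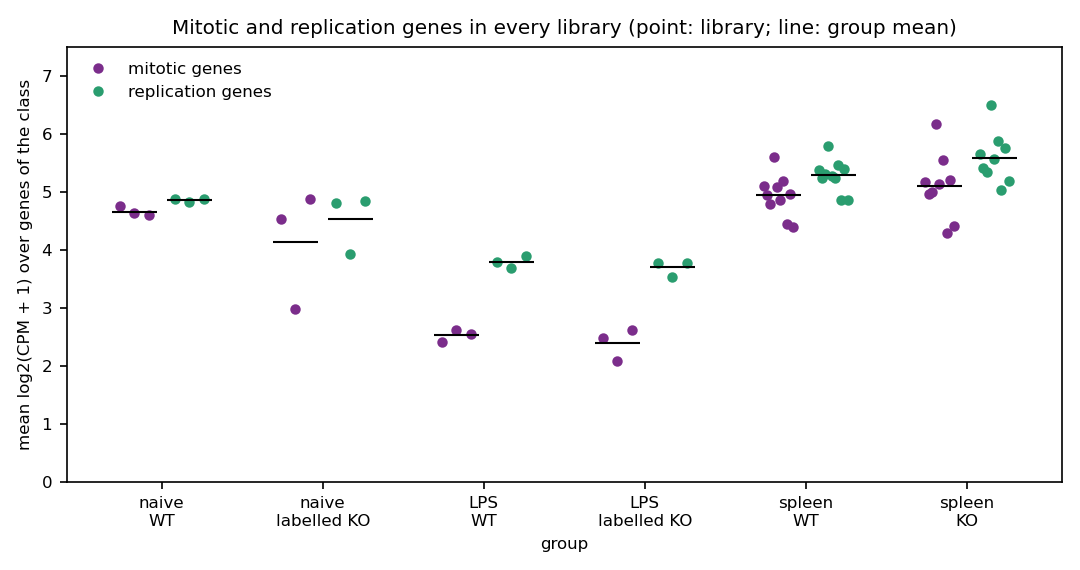
Mean log2(CPM + 1) over the 23 mitotic genes (purple) and the 17 replication genes (green) in each of the 31 libraries, by group; lines are group means and CPM is scaled over all libraries. In the 6 LPS libraries mitotic genes lie at 2.09 to 2.63 and replication genes at 3.53 to 3.90, and in naive labelled knockout 3 they lie at 2.98 and 3.92.

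By group means, wild-type LPS cells were the lowest of the 3 wild-type groups in 39 members and wild-type spleens the highest in 30, for 9 of which the spleens lay wholly above naive cells. The share over all genes was not computed for these orders, so whether such counts are unusual between a tissue and a culture was not tested. Naive cells were highest in 9 members, of which E2f1 had naive libraries wholly above the spleens on this joint scale (on the CPM scaled within each tissue, given earlier, its ranges overlap), and the others (Aurkb, Bub1, Bub1b, Kif20a, Kif23, Prc1, Foxm1 and Ccne1) overlapped with them. Tyms was highest after LPS, wholly above the other groups on the joint scale. Per kilobase of exon, naive wild-type levels ran from 0.759 CPM per kb for Cenpf to 20.8 CPM per kb for Mcm6, with Tyms at 5.14. Gapdh, a housekeeping gene with many near-identical copies, measured 3.41 CPM on average in those cells (2.26 to 4.05). In wild-type spleens it measured 80.4 to 118 CPM, both scaled within their tissue. The counting of reads shared between copies is not stated, so levels of genes with copies are uncertain. Whether reads were counted alike in cells and spleens was not tested, which limits the ranking of spleens against cells.

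**Figure D5:**
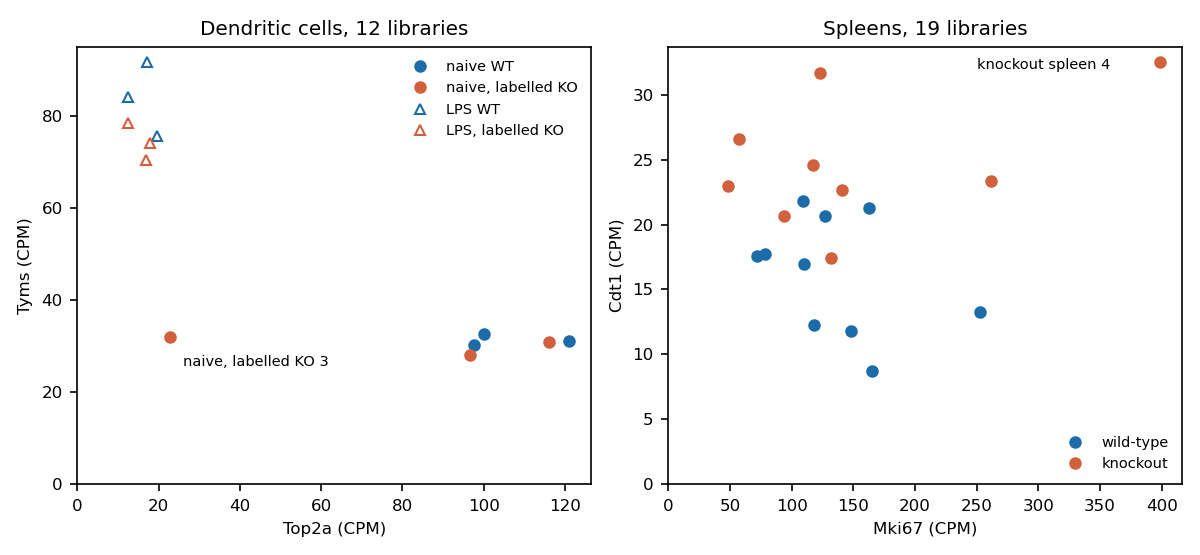
Left: Tyms against Top2a (CPM) in the 12 dendritic cell libraries, naive filled and LPS open; right: Cdt1 against Mki67 (CPM) in the 19 spleens. Naive labelled knockout 3 has a low Top2a level with a naive Tyms level, and knockout spleen 4 has the highest Mki67 and Cdt1 levels of all spleens.

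Some members share bases with other genes. Without the strand of counting, reads of Ccna2 and Exosc9 (510 shared exon bases), Kif20a and Cdc23 (1271), Prc1 and Rccd1 (911) or Ccne2 and Ints8 (609) cannot be told apart. The same holds for Mcm7 and Ap4m1 (321) and for Nusap1 and Oip5 (172). In wild-type cells Cdc23 (-0.72, SE 0.16), Ap4m1 (-0.77, SE 0.22) and Oip5 (-1.18, SE 0.30) were called lower after LPS, and Exosc9, Rccd1 and Ints8 were not called. Counts were also given to pseudogenes of Ccnb1, Ccnb2 and Pcna, 83573 of them over the 31 libraries to Pcna-ps2, so these members are uncertain. Leaving out the composition factors of TMM moved the median of all genes to -0.44 in wild-type and -0.35 in labelled knockout cells after LPS. Tyms stayed positive and the other 39 negative there. In spleens 34 of 40 members were positive without these factors.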

How the data were processed

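RNA of 12 dendritic cell cultures and 19 spleens was sequenced with standard Illumina libraries, per the labels' protocols. The authors deposited raw read counts per Ensembl gene. The submitters' processing notes name TopHat 1.3.3, Bowtie, SAMtools, bedtools, DESeq and mm9, without roles. Annotation, strand and the handling of reads with several matches: not given in the sources used here. Genes were tested with edgeR 4.0.16 in R 4.3.3 (filterByExpr, TMM, robust quasi-likelihood, Benjamini-Hochberg, threshold 0.05), 1 fit over the 4 dendritic cell groups (16965 genes) and 1 over spleens (20371 genes), and tested on simulated data. DESeq2 1.42.0, limma 3.58.1 and sva 3.50.0 gave alternatives. The SE is the absolute log2 fold change over the root of F. Of 32 other mitotic, 34 other replication, 22 G1 and 13 inhibitor genes, up to 4 per list were named in order of p. Members and lists were chosen with earlier results of these data known. Values in every library were given, per role, for the members with the smallest p for LPS in wild-type cells and for genotype in spleens, and for any member called against its class. Rrm2, Cdc6, Mki67, Cenpf, Bub1 and further members were described after their values were seen. Symbols came from GENCODE M21. Replicate numbers were taken as names: same-numbered libraries did not deviate together in every pair, so the main fits used no block. Pairing by number is not excluded by this. Depth (38998746 to 133277070 counts) limits low genes, and p-values cover no other error.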

Additional observations from a re-analysis of the deposited data

Results flagged for a closer look

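Knockout spleen 4 stood far above the other 8 knockout spleens in 3 members, by its gap to the next spleen relative to the range of the group. Mcm2 was at 6.58 on the log2(CPM + 1) scale, against 5.06 to 5.83 in the others. Mcm5 was at 8.05 against 6.67 to 7.33, and Tyms at 6.47 against 4.61 to 5.50. Of 84 groups of values tested, 3 met this rule. Chance flags about 1 in 20 groups, and all 3 fell on the same library, which was highest in all 40 members.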

How the results depend on the processing

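No log2 fold change of LPS reversed in any setting: in wild-type and labelled knockout cells 39 of 40 members were negative and Tyms positive in each. In labelled knockout cells 3 replication genes were called lower when only the libraries compared were fitted, against 11 with all 12 libraries, while in wild-type cells the same setting gave 14 against 13; the cause was not tested. In spleens DESeq2 called 2 members against 0. Leaving out 1 library at a time gave 19 to 23 mitotic and 11 to 15 replication genes lower in wild-type cells. In labelled knockout cells it gave 17 to 23 and 3 to 14, and in spleens 0 to 1 called (1 without knockout spleen 6). A replicate block gave 18 mitotic and 11 replication genes lower in wild-type cells, 20 and 9 in labelled knockout cells, and 0 for each genotype comparison; it changed the sign of 6 members in spleens. Same-numbered libraries correlated by -0.089 to 0.075 among dendritic cell groups and by -0.078 to 0.29 among spleens. For wild-type spleens 1, 2 and 4 the closest knockout spleen bore the same number (0.24, 0.29 and 0.27). For wild-type spleens 3 and 5 to 9 it bore another number, and dendritic cell libraries also went both ways. Whether the numbers pair libraries is thus not settled. Removing trends with GC content and length, chosen after seeing the data, gave 21, 13, 21 and 10 in the same order. Depth limits Cdc6, with 9 to 86 counts per wild-type LPS library.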
